A study of Caenorhabditis elegans with 20 samples.

Results

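The furrow collagens of *Caenorhabditis elegans* are *dpy-2*, *dpy-3*, *dpy-7*, *dpy-8*, *dpy-9* and *dpy-10*. They were taken from the deposited expression table by gene symbol, which gave 6 of the 46284 genes listed. The choice was by name and not by a threshold on measured values, but with earlier results of these data known. All 6 passed the filter on low values (at least 0.5 FPKM in at least 4 samples) and so were among the 15957 genes tested. *dpy-3* and *dpy-8* met it only through the enzyme mutants. Outside those strains they reached 0.5 FPKM only in wild-type replicate 1 and *hecd-1(tm2371)* replicates 1 and 2. For these genes, being tested thus depended on the strains in which they were high. Their part in counts that set enzyme mutants against wild-type or *hecd-1(tm2371)*, or in the interaction, is therefore no independent support. FPKM are fragments per kilobase of transcript, scaled to the mapped fragments of the sample, so levels of different genes are given here per length.

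The study addressed branched-chain amino acid breakdown with mutants of 2 of its enzymes, BCAT-1, the aminotransferase of the first step, and IVD-1, the isovaleryl-CoA dehydrogenase that acts further down on leucine. Poly-A RNA of whole worms on day 1 of adulthood, grown at 20°C on OP50 *E. coli* after synchronization by egg preparation, was sequenced in 20 samples, 4 from each of 5 strains. The strains, all derived from Bristol N2, were wild-type, *hecd-1(tm2371)*, a mutant of an E3 ubiquitin ligase included as a control, *bcat-1(hh58)*, *ivd-1(tm6784)*, and a strain with both enzyme mutations, *ivd-1(tm6784); bcat-1(hh58)*, called the double mutant here. Replicates 1 to 4 came from separate experiments. For strains with delayed development the study shifted either the synchronization or the collection so that worms were egg-bearing adults, so age in hours may have differed between strains. By the study's account *bcat-1(hh58)* worms became adult about 1 day later than wild-type and had fewer viable offspring. Each mutant gene is represented by a single allele. The *bcat-1(hh58)* allele was edited with a *dpy-10* guide as co-conversion marker, and worms with a *dpy-10* phenotype were avoided by the study; FPKM values do not show the sequence of *dpy-10* in that strain.

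The cuticle of *C. elegans* is a collagen-rich outer matrix that the epidermis secretes anew before every molt. Circular furrows run around the body between raised annuli, and the furrow collagens are needed to form them: loss of any of these collagens removes the furrows and leaves a short, fat (dumpy) worm. Within a larval molting cycle the furrow collagen genes are switched on early, ahead of collagens of the annuli such as *dpy-13*. Adults no longer molt. Loss of furrows is also known to switch on osmotic, antimicrobial and detoxification genes in the epidermis.

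The 6 genes lie on 3 chromosomes (WBcel235 coordinates, Ensembl 115 annotation). *dpy-2* (WBGene00001064, II:6714292-6715971, plus strand) and *dpy-10* (WBGene00001072, II:6710149-6712227, minus strand) are divergent genes whose annotated ends lie 2064 bases apart. The X chromosome carries *dpy-3* (WBGene00001065, X:2144605-2145647), *dpy-7* (WBGene00001069, X:7536467-7537792) and *dpy-8* (WBGene00001070, X:5148804-5150476), all on the minus strand. *dpy-9* (WBGene00001071, IV:257403-259204, minus strand) lies near the left end of chromosome IV. They have 2 to 5 exons and short coding parts of 906 to 1356 bases, or 302 to 452 codons. *dpy-8* overlaps C31H2.14 on the other strand, which was listed at 22.5 to 29.7 FPKM in wild-type and 21.4 to 31.2 FPKM in *bcat-1(hh58)*. *dpy-10* overlaps T14B4.19 on its own strand, a gene that is not among those listed with FPKM. Fragments of the shared stretch therefore cannot be assigned from these values and may be counted for *dpy-10*.

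The summed FPKM per sample lay within 1.13-fold of each other. Relative depth was read from the most common ratio of low values to those of wild-type replicate 1. Set to the median sample, it lay between 0.887 and 1.08. The targeted genes were checked in every strain. *hecd-1* was at 21.5 to 23.3 FPKM in *hecd-1(tm2371)*, and wild-type had 32.3 to 33.7 FPKM. *ivd-1* was at 149 to 162 FPKM in *ivd-1(tm6784)* and 59.7 to 65.9 FPKM in the double mutant, against 206 to 230 FPKM in wild-type, but it was also lower, at 123 to 127 FPKM, in *bcat-1(hh58)*. *bcat-1* RNA was not lower in *bcat-1(hh58)*, at 197 to 218 FPKM compared with 123 to 145 in wild-type. It was also at 195 to 228 FPKM in *ivd-1(tm6784)* and at 146 to 228 FPKM in the double mutant. The *bcat-1(hh58)* allele is an early stop codon, so its RNA level does not check the label.

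In wild-type adults the furrow collagens were near the bottom of the measured range, and their levels differed widely from gene to gene. *dpy-10*, the gene of the common co-conversion marker of genome editing, was the highest, at 4.16, 3.59, 4.29 and 4.31 FPKM in replicates 1 to 4, a mean of 4.09 ± 0.337 (SD, n = 4). *dpy-9* followed at 2.39, 1.98, 2.19 and 1.65 FPKM (2.05 ± 0.316). *dpy-2* was at 1.55, 1.08, 0.778 and 0.600 FPKM (1.00 ± 0.414). These 3 ranges did not overlap. *dpy-7*, whose promoter is widely used to drive transgenes in the epidermis, was at 0.886, 0.339, 0.752 and 0.246 FPKM (0.555 ± 0.311), and *dpy-8* at 0.845, 0.336, 0.310 and 0.421 FPKM (0.478 ± 0.249). The ranges of *dpy-7* and *dpy-8* overlapped with each other and with that of *dpy-2*, so their order was within the spread of the samples. *dpy-3* was the lowest in each of the 4 samples, at 0.700, 0.0884, 0.0819 and 0.0400 FPKM; 3 of the 4 values lay close together and replicate 1 stood far above them. From the lowest to the highest mean the 6 genes spanned 17.95-fold.

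So few fragments lay behind the lowest levels that they can be read off. After scaling for relative depth, the wild-type and *hecd-1(tm2371)* values of *dpy-3* fell on whole multiples of the smallest one above 0, all 8 within 0.15 of a whole number. The smallest value itself and the value of 0 are whole by construction. If that smallest value is 1 fragment, wild-type held 17, 2, 2 and 1 fragments of *dpy-3*. *hecd-1(tm2371)* then held 45, 41, 0 and 1. *dpy-7* fell on whole numbers when its lowest value was set to 4 fragments, a number that was set by hand and not estimated. That gives 28, 10, 24 and 8 in wild-type and 100, 57, 13 and 4 in *hecd-1(tm2371)*. Ratios to the wild-type level of *dpy-3* therefore rest on very few fragments, and the tests were made on log2(FPKM + 0.5), a scale that understates changes of such low genes.

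**Figure D1:**
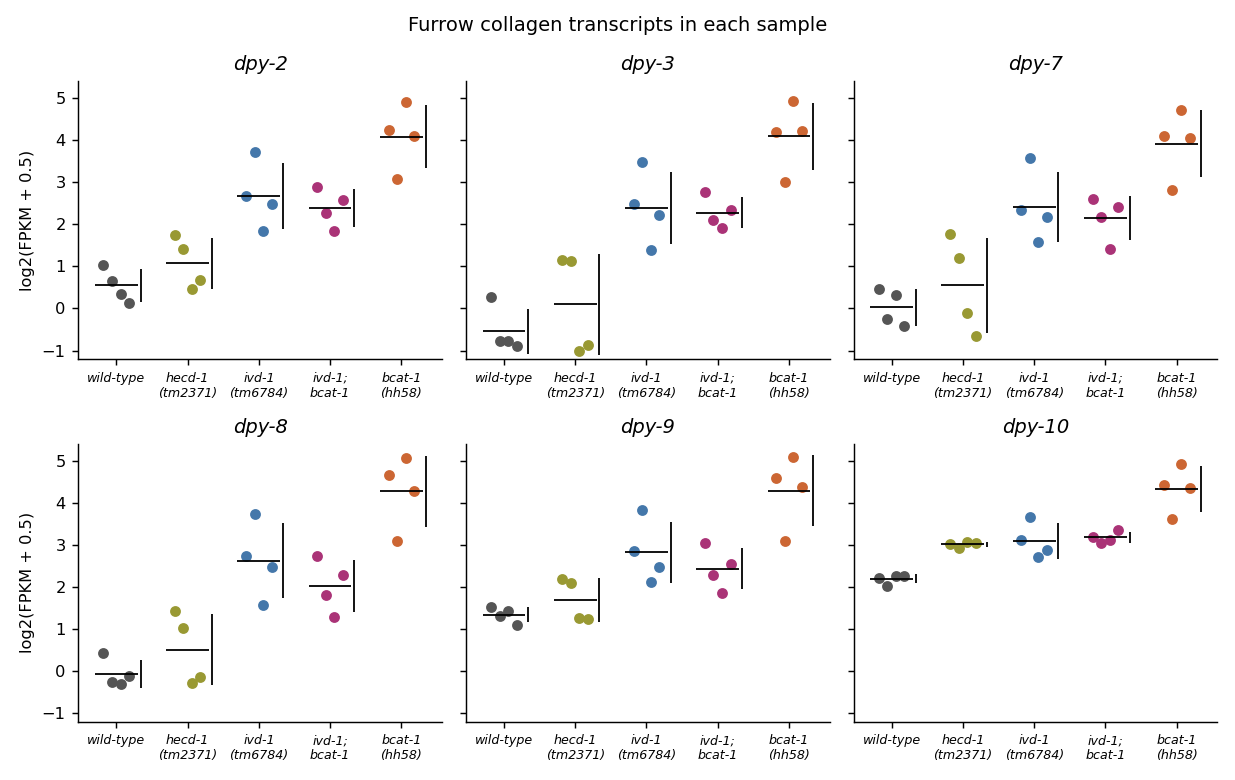
Level of each furrow collagen as log2(FPKM + 0.5) in the 4 samples of each strain (points, replicates 1 to 4 from left to right), with the mean (horizontal line) and 1 SD to either side (vertical line). All samples of both single enzyme mutants and of the double mutant sit above all wild-type samples for each of the 6 genes, and *bcat-1(hh58)* is the highest strain by its mean.

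Every furrow collagen rose in *ivd-1(tm6784)*. *dpy-2* reached 5.82, 12.6, 3.07 and 5.06 FPKM in replicates 1 to 4. *dpy-3* reached 5.09, 10.6, 2.13 and 4.17 FPKM. The lowest of these *dpy-3* values was still above the highest wild-type value. *dpy-7* was at 4.53, 11.4, 2.51 and 3.98 FPKM and *dpy-8* at 6.16, 12.9, 2.46 and 5.03 FPKM. *dpy-9* was at 6.75, 13.6, 3.85 and 5.04 FPKM and *dpy-10* at 8.19, 12.2, 6.01 and 6.83 FPKM. Replicate 2 was the highest and replicate 3 the lowest for every one of the 6 genes. The samples of the 2 strains did not overlap for any of the 6, where all 4 samples stood above all 4 wild-type samples for 25.6% of the genes tested. Among the 6, *dpy-3* and *dpy-8* entered the test only through the enzyme mutants.

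By limma's moderated test the difference from wild-type passed an adjusted p of 0.05 for 6 of 6 furrow collagens, all higher. Of all genes tested, 19.9% were called higher. *dpy-3* and *dpy-8* were tested only because of their levels in the enzyme mutants. *dpy-2*, *dpy-7*, *dpy-9* and *dpy-10*, which met the filter without those strains, were all called higher. The size followed the wild-type level inversely. It was largest for *dpy-3*, at 2.94 on the log2 scale (SE 0.53, adjusted p = 0.000742), then 2.69 for *dpy-8* (SE 0.49), 2.38 for *dpy-7* (SE 0.52) and 2.12 for *dpy-2* (SE 0.41). *dpy-9* differed by 1.47 (SE 0.40, adjusted p = 0.0128) and *dpy-10* by 0.90 (SE 0.21, adjusted p = 0.00572). The median of the 6 was 2.25, beside 0.11 for all genes tested. These background shares depend on scaling: of all genes called, 87.3% were higher as tested here, 38.2% after quantile normalization and 60.2% after median-of-ratios scaling, while the 6 furrow collagens were higher under each. The 2 smallest differences were the least firm: *dpy-9* missed the threshold without *ivd-1(tm6784)* replicate 2 (1.14, adjusted p = 0.0583), and *dpy-10* missed it after quantile normalization (0.53, adjusted p = 0.0765).

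The rise was larger in *bcat-1(hh58)*. *dpy-8* was at 24.7, 8.04, 32.7 and 19.02 FPKM and *dpy-9*, the highest by its mean, at 23.5, 8.05, 33.3 and 20.3 FPKM. *dpy-10* was at 20.8, 11.7, 29.8 and 19.8 FPKM. The 3 other genes lay in the same range. *dpy-2* was at 18.2, 7.94, 29.2 and 16.6 FPKM, *dpy-3* at 17.8, 7.52, 29.8 and 18.2 FPKM, and *dpy-7* at 16.5, 6.51, 25.7 and 15.9 FPKM. Here replicate 3 was the highest and replicate 2 the lowest for every gene, and replicate 2 was the sample that came down to the level of the *ivd-1(tm6784)* samples.

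Of the 6 genes, 6 passed the test against wild-type, all higher, beside 33.9% of all genes tested. The samples of the 2 strains did not overlap for any of the 6, beside 29.5% of all genes. Again *dpy-3* and *dpy-8* entered the test only through the enzyme mutants. The log2 differences were 4.63 for *dpy-3* (SE 0.53, adjusted p = 2.36e-06), 4.34 for *dpy-8* (SE 0.49), 3.88 for *dpy-7* (SE 0.52), 3.53 for *dpy-2* (SE 0.41), 2.94 for *dpy-9* (SE 0.40) and 2.13 for *dpy-10* (SE 0.21, adjusted p = 6.07e-07). The order of the genes was the same as in *ivd-1(tm6784)*; both comparisons use the same wild-type samples. The median was 3.70, beside 0.17 for all genes tested. Of all genes called, 76.6% were higher here and 34.6% after quantile normalization. All 6 calls were kept under each alternative setting and without any single sample.

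The direct comparison of the single mutants was less firm. In *bcat-1(hh58)* 5 of the 6 genes were higher than in *ivd-1(tm6784)*, beside 13.2% of all genes tested, with a median log2 difference of 1.48. The clearest was *dpy-10* (1.23, SE 0.21, adjusted p = 0.000543), and *dpy-7* missed the threshold (1.50, SE 0.52, adjusted p = 0.0503). The sample ranges of the 2 strains overlapped for all 6 genes, where 12.5% of all genes stood higher in all 4 *bcat-1(hh58)* samples, because *bcat-1(hh58)* replicate 2 lay below *ivd-1(tm6784)* replicate 2. The number called fell to 1 without *ivd-1(tm6784)* replicate 3 and to 2 without *ivd-1(tm6784)* replicate 4 or *bcat-1(hh58)* replicate 1 or 3. It was 3 without *bcat-1(hh58)* replicate 4, and 1 when only these 2 strains entered the fit.

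**Figure D2:**
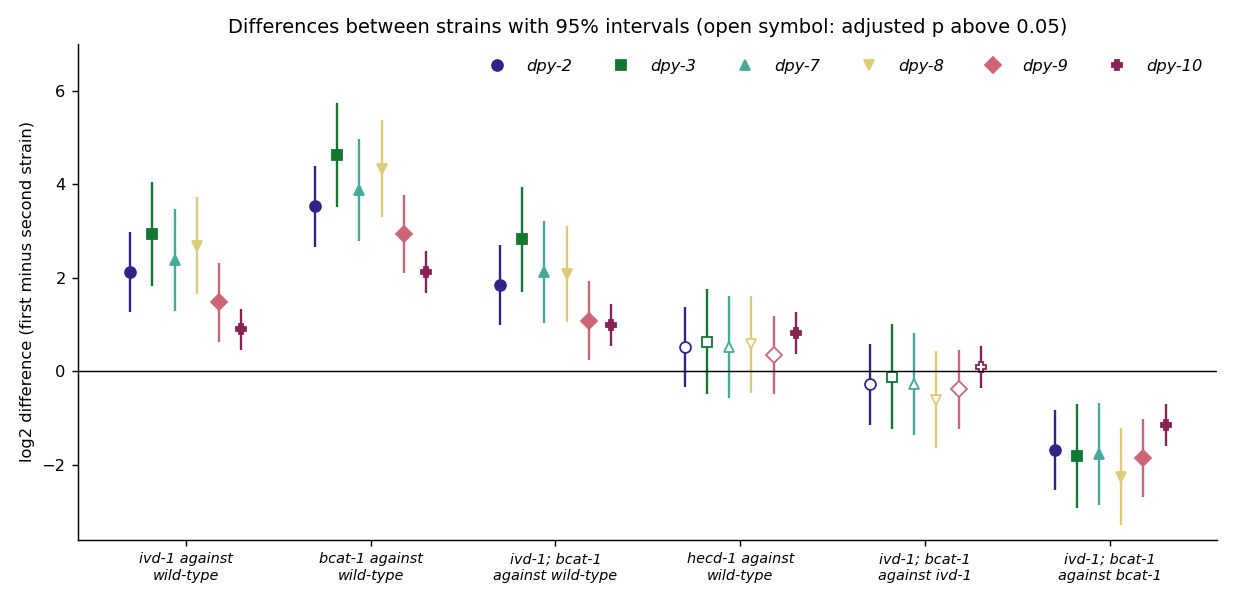
log2 difference of each furrow collagen in 6 comparisons (symbol, first strain minus second) with its 95% interval (line); filled symbols have an adjusted p of 0.05 or less and open symbols do not. Against wild-type all 6 are higher in the *ivd-1* and *bcat-1* single mutants and in their double mutant, and the double mutant lies below *bcat-1(hh58)* but not apart from *ivd-1(tm6784)*.

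In the double mutant the furrow collagens were above wild-type and below *bcat-1(hh58)*, and none was called different from *ivd-1(tm6784)*. *dpy-2* was at 6.89, 4.33, 3.05 and 5.49 FPKM, *dpy-3* at 6.33, 3.80, 3.24 and 4.53 FPKM, and *dpy-7* at 5.53, 3.99, 2.16 and 4.84 FPKM. *dpy-8* was at 6.13, 2.99, 1.92 and 4.34 FPKM and *dpy-9* at 7.68, 4.37, 3.15 and 5.32 FPKM. These 5 genes were highest in replicate 1 and lowest in replicate 3. *dpy-10* was the exception, at 8.62, 7.81, 8.16 and 9.77 FPKM, with an SD of 0.855 around a mean of 8.59 and its highest value in replicate 4.

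Against wild-type, 6 of 6 genes were called higher in the double mutant, beside 26.4% of all genes, and none of the 6 overlapped with wild-type, beside 26.3%. Both counts include *dpy-3* and *dpy-8*, which entered the test only through the enzyme mutants. The log2 differences ran from 0.99 for *dpy-10* (SE 0.21, adjusted p = 0.00163) to 2.82 for *dpy-3* (SE 0.53, adjusted p = 0.000568), with a median of 1.97. The *dpy-9* difference of 1.09 (SE 0.40, adjusted p = 0.0387) was the weakest: leaving out any single wild-type sample, or replicate 1, 2 or 4 of the double mutant, ended its call, with adjusted p between 0.0517 and 0.111.

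Against *bcat-1(hh58)* all 6 genes were called lower, beside 19.5% of all genes tested, and every double-mutant sample lay below every *bcat-1(hh58)* sample for each gene, beside 11.1% of all genes. The largest fall was that of *dpy-8*, at -2.25 on the log2 scale (SE 0.49, adjusted p = 0.0104), and the smallest that of *dpy-10*, at -1.14 (SE 0.21, adjusted p = 0.00743). The other 4 lay between -1.68 and -1.85. The median was -1.79, beside -0.07 for all genes tested. Of all genes called, 16.8% were higher here and 64.5% after quantile normalization. These calls depended on the samples and on the model: 3 genes were left without *bcat-1(hh58)* replicate 3 or without double-mutant replicate 3, and none when only the 2 strains entered the fit, where 7 of all genes tested were called. All 6 falls in that smaller fit had the same size, at adjusted p of 0.0677 to 0.0732.

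Against *ivd-1(tm6784)* no furrow collagen was called, beside 44.6% of all genes tested in either direction; none of the 6 had an unadjusted p under 0.05 either. The log2 differences ran from -0.61 for *dpy-8* (95% interval -1.64 to 0.43) to 0.09 for *dpy-10* (-0.36 to 0.54). These intervals leave room for a 2-fold change of 5 genes in at least 1 direction, so the strains were not shown to be alike for these genes. Without *ivd-1(tm6784)* replicate 2 the differences of *dpy-2*, *dpy-3* and *dpy-7* changed sign, to 0.07, 0.24 and 0.12.

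The test of the interaction asks whether *bcat-1(hh58)* changed a gene by the same log2 amount in the *ivd-1(tm6784)* background as in wild-type. It passed for all 6 furrow collagens, all negative, beside 35.3% of all genes that were called negative, a share that was 16.8% after quantile normalization. The interaction ran from -2.04 for *dpy-10* (SE 0.30, adjusted p = 9.38e-05) to -4.94 for *dpy-8* (SE 0.69, adjusted p = 6.27e-05), with a median of -3.98 beside -0.19 for all genes tested (0.19 after quantile normalization). On the FPKM scale the same holds: adding the changes of the single mutants to the wild-type mean gives 21.2 to 27.3 FPKM, while the double mutant had means of 3.85 to 8.59 FPKM, differences of -16.1 FPKM (*dpy-10*) to -23.4 FPKM (*dpy-8*). All 6 interaction calls were kept under every setting tried.

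The control mutant *hecd-1(tm2371)* gave another picture. *dpy-10* stood at 7.56, 7.13, 7.82 and 7.71 FPKM, above every wild-type sample and within the range of *ivd-1(tm6784)*. The other genes were split between samples: replicates 1 and 2 were high and replicates 3 and 4 were at the wild-type level. *dpy-3* was at 1.71 and 1.67 FPKM in replicates 1 and 2, was listed at 0 in replicate 3 and was at 0.0439 FPKM in replicate 4. *dpy-7* was at 2.91, 1.78, 0.427 and 0.135 FPKM, and *dpy-8* at 2.20, 1.54, 0.325 and 0.410 FPKM. *dpy-2* (2.85, 2.16, 0.875 and 1.11 FPKM) and *dpy-9* (4.09, 3.75, 1.88 and 1.85 FPKM) had the same split, and the rank of *dpy-10* did not follow it.

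Only *dpy-10* was called against wild-type in *hecd-1(tm2371)*, at a log2 difference of 0.81 (SE 0.21, adjusted p = 0.0127), which makes 1 of 6 beside 14.0% of all genes called higher. It was also the only one of the 6 whose samples did not overlap with wild-type, beside 20.2% of all genes. The other 5 had log2 differences of 0.35 to 0.64 with adjusted p of 0.395 to 0.587. Against *hecd-1(tm2371)*, 5 of the 6 genes were higher in *ivd-1(tm6784)*, beside 27.3% of all genes, with *dpy-3* at 2.30 (SE 0.53, adjusted p = 0.00204) and *dpy-9* at 1.12 (SE 0.40, adjusted p = 0.0262). *dpy-10* differed by 0.08 (95% interval -0.37 to 0.53). The *dpy-9* call ended without *ivd-1(tm6784)* replicate 2 or without *hecd-1(tm2371)* replicate 3 or 4.

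The 6 genes were far apart in wild-type and drew together where they were high. The highest mean was 17.95 times the lowest in wild-type and 8.83 times in *hecd-1(tm2371)*. It was 2.23 times in the double mutant, 1.51 times in *ivd-1(tm6784)* and 1.32 times across *bcat-1(hh58)*, where the means ran from 16.2 (*dpy-7*) to 21.3 FPKM (*dpy-9*) and the sample ranges of all 6 overlapped. In other words the genes gained similar amounts of FPKM. The gain over the wild-type mean was 15.6 to 20.6 FPKM in *bcat-1(hh58)*, 4.22 to 6.15 FPKM in *ivd-1(tm6784)* and 3.07 to 4.51 FPKM in the double mutant. In *hecd-1(tm2371)* it was 3.47 FPKM for *dpy-10* and 0.628 to 0.841 FPKM for the other 5. The ratio to the wild-type mean, by contrast, ran in *bcat-1(hh58)* from 5.02 for *dpy-10* to 80.5 for *dpy-3*. The order of the fold changes thus is the inverse of the order of the wild-type levels, and it does not show that some furrow collagens gained more RNA than others.

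**Figure D3:**
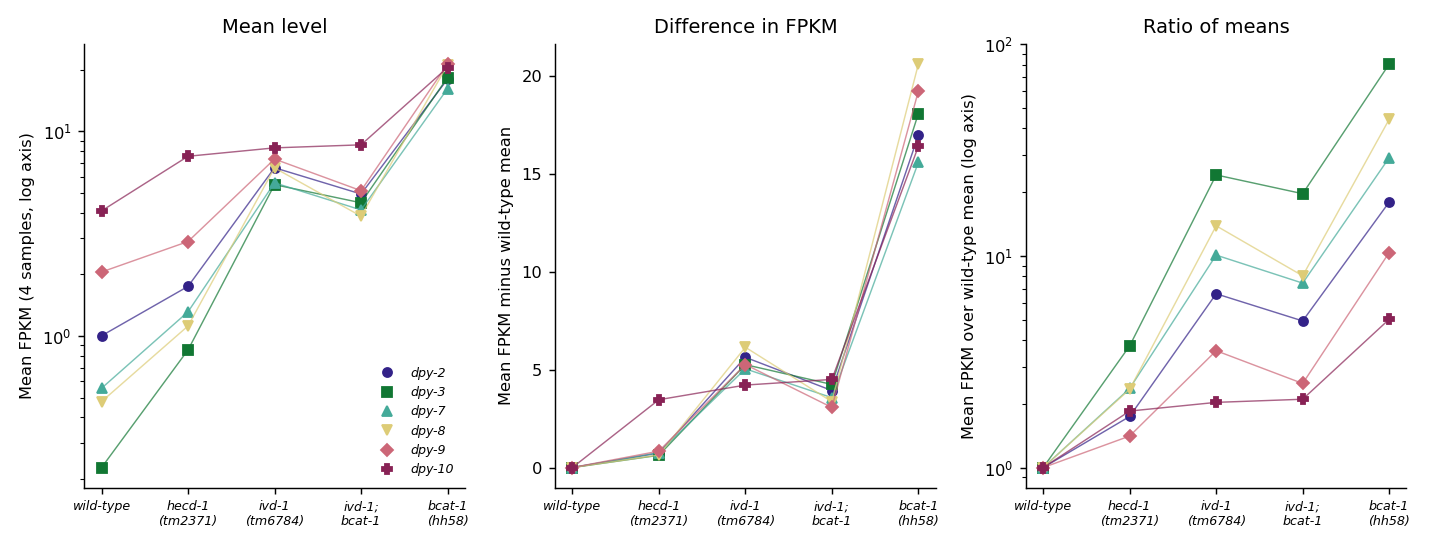
Mean FPKM of each furrow collagen in the 5 strains (left, log axis), the difference from its wild-type mean in FPKM (middle) and the ratio to its wild-type mean (right, log axis); lines only join the means of 1 gene. The means run from 0.228 to 4.09 FPKM in wild-type and from 16.2 to 21.3 FPKM in *bcat-1(hh58)*, where the differences lie between 15.6 and 20.6 FPKM while the ratios span 5.02 to 80.5.

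Within strains the furrow collagens rose and fell together from sample to sample. In *ivd-1(tm6784)* all 6 genes ranked the replicates 2, 1, 4, 3 from highest to lowest. In *bcat-1(hh58)* 5 genes ranked them 3, 1, 4, 2, and *dpy-3* exchanged the middle places. In the double mutant 5 genes ranked them 1, 4, 2, 3 with *dpy-10* apart. In wild-type, replicate 1 was the highest for every gene but *dpy-10*. Summed over the 6 genes, a sample held 7.27 to 10.5 FPKM in wild-type, 11.3 to 21.3 in *hecd-1(tm2371)*, 21.7 to 41.2 in the double mutant, 20.0 to 73.3 in *ivd-1(tm6784)* and 49.7 to 180.4 FPKM in *bcat-1(hh58)*. The samples of a strain thus differed by up to 3.66-fold in *ivd-1(tm6784)* and 3.63-fold in *bcat-1(hh58)*. Across the 20 samples each gene followed the mean of the 6 standardized profiles with a Pearson r of 0.982 to 0.995, and *dpy-10* with 0.924; these r values are a description, since each gene is part of that mean and the strains differ.

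The 8 genes outside the 6 whose profile came closest to this mean over the 20 samples were F44E2.4 (r = 0.991), *lpr-5* (0.990), M03B6.3 (0.990), *wrt-2* (0.989), *lpr-6* (0.988), *mlt-11* (0.988), *hhat-1* (0.986) and *ptr-4* (0.986). *lpr-5* and *lpr-6* encode lipocalin-related secreted proteins, *wrt-2* a hedgehog-related protein, *mlt-11* a protease inhibitor needed for molting, and *ptr-4* a Patched-related membrane protein needed for molting. *lpr-5*, for example, was at 0.189 to 0.942 FPKM in wild-type, 2.06 to 7.42 in *ivd-1(tm6784)*, 5.88 to 23.3 in *bcat-1(hh58)*, 1.87 to 4.21 in the double mutant and 0.134 to 1.28 in *hecd-1(tm2371)*. A total of 178 genes outside the 6 reached an r of at least 0.95, so the pattern is shared widely. Among the 100 closest genes 3 were *col* collagens, of which 120 were tested.

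Molting genes moved with the furrow collagens in the comparisons and in single samples. Their list, like the other gene lists below, was drawn up with earlier results of these data known. Its counts therefore describe these data and are no independent support. Of 18 molting regulators and molting genes, 13 were higher and none lower in *ivd-1(tm6784)* than in wild-type (median log2 difference 1.37), beside 19.9% of all genes called higher, and 17 were higher and 1 lower in *bcat-1(hh58)* (median 1.84), beside 33.9%. After quantile normalization 9 were higher in *ivd-1(tm6784)* (median 0.89) and 14 were in *bcat-1(hh58)* (median 1.26). In the double mutant 14 were lower than in *bcat-1(hh58)* and none higher (median -1.17), beside 19.5% of all genes called lower. With only these 2 strains in the fit none of the 18 was called, nor any gene of the other lists. *mlt-8*, a gene needed for molting, was at 16.4 to 41.2 FPKM in *ivd-1(tm6784)* and 25.8 to 94.0 FPKM in *bcat-1(hh58)*, with wild-type at 1.35 to 4.11, log2 differences of 3.21 (SE 0.43, adjusted p = 7.45e-05) and 4.191 (SE 0.43). *mlt-10*, *mlt-9* and *qua-1*, a hedgehog-related gene, differed by 2.20, 2.19 and 2.12 in *ivd-1(tm6784)* and by 3.17, 3.44 and 3.35 in *bcat-1(hh58)*. The gene lower in *bcat-1(hh58)* was *nhr-23*, a nuclear receptor that drives larval molting, at 24.4 to 28.5 FPKM compared with 27.9 to 31.3 in wild-type (-0.17, SE 0.06, adjusted p = 0.0435), named after its value was seen.

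**Figure D4:**
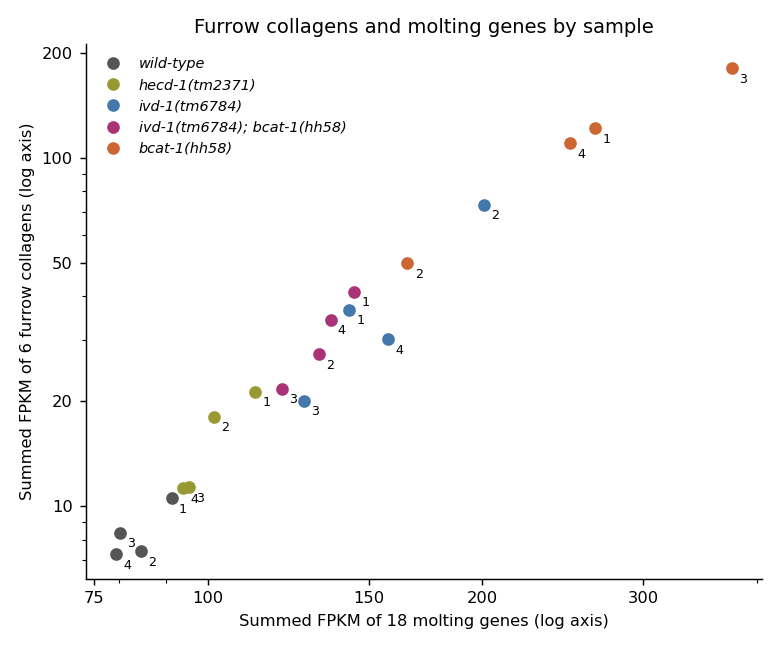
Summed FPKM of the 6 furrow collagens (y axis, log) against that of the 18 molting genes (x axis, log) in each of the 20 samples, coloured by strain and numbered by replicate. The samples lie along 1 band from wild-type (7.27 to 10.5 and 79.4 to 91.2 FPKM) to *bcat-1(hh58)* (49.7 to 180.4 and 166 to 375 FPKM), and the highest sample of *ivd-1(tm6784)*, replicate 2, lies above the lowest of *bcat-1(hh58)*, also replicate 2.

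Summed over the 18 molting genes, *ivd-1(tm6784)* replicate 2 and *bcat-1(hh58)* replicate 3 were the highest samples of their strains at 201 and 375 FPKM, and *ivd-1(tm6784)* replicate 3 and *bcat-1(hh58)* replicate 2 the lowest at 127 and 166 FPKM, as for the furrow collagens. In *hecd-1(tm2371)* replicates 1 and 2 were at 113 and 102 FPKM and replicates 3 and 4 at 95.4 and 94.0 FPKM. Their part in the furrow collagen differences was not tested. The stage of the worms, the age at collection and the genotype cannot be told apart in this design, and in bulk RNA neither can more worms or cells with these transcripts and more transcript per cell.

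Body-shape cuticle collagens had larger medians than the furrow collagens, and the difference between the lists was not tested. Of the 14 body-shape cuticle collagens tested, 13 were higher in *ivd-1(tm6784)* (median 3.82) and 13 in *bcat-1(hh58)* (median 4.87). None was lower in either, and 14 were higher in the double mutant (median 2.93). Of all genes tested, 19.9%, 33.9% and 26.4% were called higher in these 3 comparisons with wild-type. *dpy-5*, a collagen needed for body length, was at 152 to 312 FPKM in *ivd-1(tm6784)* and 210 to 664 FPKM in *bcat-1(hh58)*, with wild-type at 2.92 to 29.2, differences of 4.70 (SE 0.64) and 5.45 (SE 0.64). *dpy-13*, a collagen of the annuli, *dpy-4* and *sqt-1* differed by 4.54, 4.54 and 4.34 in *ivd-1(tm6784)*. Against *bcat-1(hh58)*, 9 of the 14 were lower in the double mutant, beside 19.5% of all genes called lower. In the same comparison 1 was higher (*dpy-17*, 0.98, SE 0.27, adjusted p = 0.0238, named after its value was seen), beside 627 of the 15957 genes tested. The remaining 4 had adjusted p of 0.0511 to 0.0942, among them *dpy-14*, at 8.29 to 15.2 FPKM in the double mutant against 2.44 to 8.86 in *bcat-1(hh58)*.

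Of 5 adult cuticle collagens 4 were called higher than wild-type in each single mutant. Beside this, 19.9% of all genes tested were called higher with *ivd-1(tm6784)* and 33.9% with *bcat-1(hh58)*. An example was *bli-1* (2.89 and 4.47, SE 0.54), needed for the struts of the adult cuticle. *col-19*, an adult-specific collagen, had a difference of 0.08 in *ivd-1(tm6784)* that did not pass. *col-19* was lower in *bcat-1(hh58)* (-0.32, SE 0.13, adjusted p = 0.0468), beside 10.3% of all genes. The 5 genes summed to 2186 to 2415 FPKM for wild-type and 2502 to 2636 FPKM for *ivd-1(tm6784)*. The *bcat-1(hh58)* sums were lower, at 1747 to 2172 FPKM, so the count of genes higher does not hold for their summed level there.

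The *col* family, the large set of numbered collagen genes, was mixed. Of 156 members 120 were tested: 73 were higher and 6 lower in *ivd-1(tm6784)*, and 80 were higher and 21 lower in *bcat-1(hh58)* (medians 1.62 and 2.06). Of all genes tested, 19.9% were called higher and 2.88% lower in *ivd-1(tm6784)*, and 33.9% higher and 10.3% lower in *bcat-1(hh58)*. The largest rises in *ivd-1(tm6784)* were those of *col-88* (5.36), *col-161* (5.04), *col-162* (4.998) and *col-91* (4.89). *col-8* was among the 6 that fell, at 1784 to 2008 FPKM compared with 2206 to 2661 in wild-type (-0.35, SE 0.09). Near-identical *col* genes can share fragments, so single values of this family are uncertain. The 5 collagens outside the cuticle had medians near 0: in *ivd-1(tm6784)* their median log2 difference was 0.06 and in *bcat-1(hh58)* it was 0.03, with 1 called higher in *ivd-1(tm6784)* (*cle-1*, 0.19, SE 0.06; none was after either other scaling) and 1 called lower in *bcat-1(hh58)* (*mec-5*, -0.43, SE 0.10).

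The enzymes that process collagen and the other apical matrix proteins differed from wild-type by less. Of 12 processing and crosslinking genes tested, 6 were higher in *ivd-1(tm6784)* (median 0.22), beside 19.9% of all genes called higher. In *bcat-1(hh58)* 9 were higher and 1 lower (*phy-3*, -0.54, SE 0.20), with a median of 0.43, beside 33.9% and 10.3% of all genes. After quantile normalization 2 were higher and 1 lower in *ivd-1(tm6784)* (median 0.03), beside 1396 and 2262 of the 15957 genes tested. Under that scaling 7 were higher and 3 lower in *bcat-1(hh58)*, beside 2537 and 4788 of all genes. *dpy-18*, a prolyl 4-hydroxylase subunit that modifies cuticle collagens, was at 31.8 to 42.3 FPKM in *ivd-1(tm6784)* and 39.4 to 75.1 FPKM in *bcat-1(hh58)*, with wild-type at 20.0 to 21.4. *mlt-7*, a peroxidase that crosslinks cuticle collagens, and *phy-2*, another prolyl 4-hydroxylase subunit, differed by 0.61 and 0.37 in *ivd-1(tm6784)*, and *doxa-1* by 0.41, which did not pass (adjusted p = 0.128). Of 11 apical matrix genes tested 8 were higher in *ivd-1(tm6784)* and 10 were in *bcat-1(hh58)* (medians 1.11 and 1.53), beside the same 19.9% and 33.9%. These became 6 higher and 1 lower (median 0.66) and 8 higher (median 0.98) after quantile normalization. In the double mutant 8 were lower than in *bcat-1(hh58)*, beside 19.5% of all genes called lower. *lpr-3*, a lipocalin of the provisional matrix, had the largest change, 2.36 (SE 0.50) and 4.12 (SE 0.50).

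**Figure D5:**
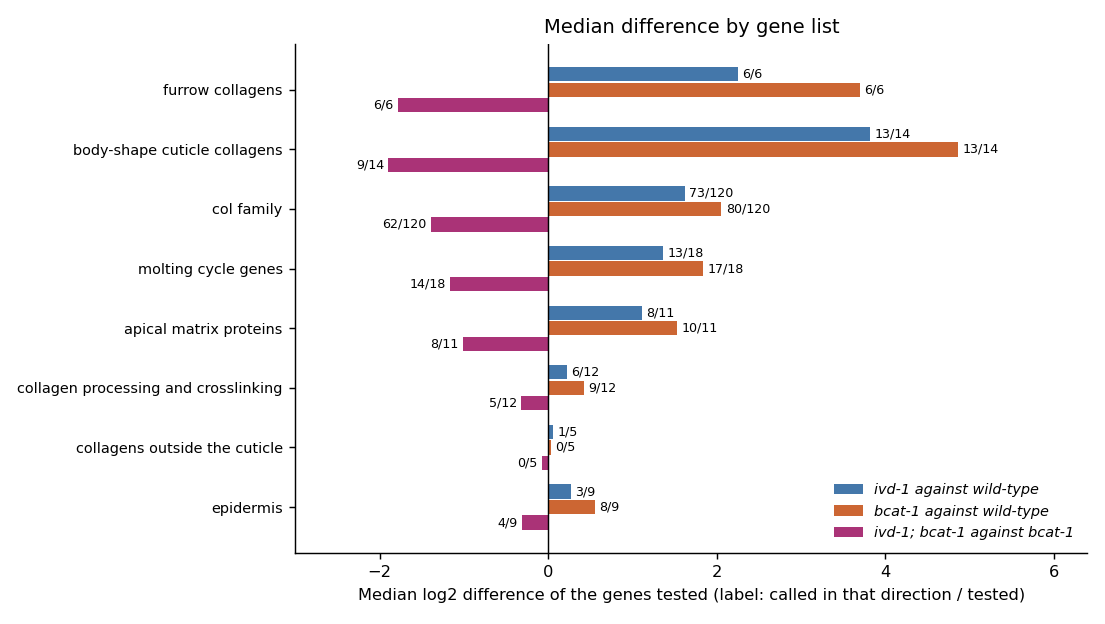
Median log2 difference of the tested genes of 8 lists in 3 comparisons (bars), with the number called in the direction of the bar over the number tested. The furrow collagens (2.25, 3.70 and -1.79) lie between the body-shape collagens (3.82, 4.87 and -1.90) and the molting genes (1.37, 1.84 and -1.17), and the collagens outside the cuticle lie near 0 with a sign that changes with scaling.

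Genes that are known to be switched on when furrows are lost were mostly higher in *ivd-1(tm6784)* and mixed in *bcat-1(hh58)*. Of 9 such genes 8 were higher in *ivd-1(tm6784)* than in wild-type, beside 19.9% of all genes tested, and 5 were after either other scaling. Their median log2 difference was 0.89, beside 0.11 for all genes. In *bcat-1(hh58)* 5 were higher and 4 lower, beside 33.9% and 10.3% of all genes. There the median was 0.24, beside 0.17 for all genes. The antimicrobial peptide genes were higher in both: *nlp-29* was at 80.2 to 146 FPKM in *ivd-1(tm6784)* and 94.9 to 152 FPKM in *bcat-1(hh58)*, with wild-type at 19.4 to 41.2 (1.99 and 2.23, SE 0.22 each), and *cnc-4*, *nlp-31* and *cnc-2* differed by 2.05, 1.404 and 1.35 in *ivd-1(tm6784)*. The 4 lower in *bcat-1(hh58)*, named after their values were seen, were *gpdh-1*, an enzyme of osmotic glycerol synthesis (-1.09, SE 0.27), *hmit-1.1*, a transporter gene of the osmotic response (-0.83, SE 0.29), the detoxification gene *gst-4* (-0.56, SE 0.10) and *nit-1* (-0.58, SE 0.16). *gpdh-1* was higher in *ivd-1(tm6784)* (0.89, SE 0.27, adjusted p = 0.0241) and in *hecd-1(tm2371)* (0.84).

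Markers of cell types and stages were read beside these changes. Of all genes tested, 19.9% were called higher and 2.88% lower in *ivd-1(tm6784)*. The shares were 33.9% and 10.3% in *bcat-1(hh58)* and 26.4% and 11.9% in the double mutant; counts of markers are read against them. Of 9 epidermal markers, 3 were higher in *ivd-1(tm6784)* (median 0.27) and 8 in *bcat-1(hh58)* (median 0.55), which became none and 3 after quantile normalization. Their summed level was 121 to 127 FPKM in wild-type, 130 to 135 in *ivd-1(tm6784)* and 144 to 152 FPKM in *bcat-1(hh58)*. Of 9 germline and oocyte markers 3 were lower in *ivd-1(tm6784)* and 4 were in *bcat-1(hh58)*, and their sum was 2775 to 2934 FPKM in wild-type, 2245 to 2556 in *ivd-1(tm6784)* and 2055 to 2698 FPKM in *bcat-1(hh58)*. The lowest sums of these 2 strains were in *ivd-1(tm6784)* replicate 2 and *bcat-1(hh58)* replicate 3, the samples highest in furrow collagens. Early embryo markers summed to 7.40 to 12.1 FPKM in wild-type, 8.45 to 9.35 in *ivd-1(tm6784)*, 11.4 to 17.3 in *bcat-1(hh58)* and 13.8 to 20.7 in the double mutant; of the 6 tested, none was called in *ivd-1(tm6784)*, 2 were higher in *bcat-1(hh58)* and 4 in the double mutant. Sperm markers summed to 53.4 to 96.9 FPKM in wild-type and 13.03 to 38.2 in the double mutant, where 3 of 5 were lower, and none of the 5 was called in either single mutant. Of the 14 muscle, pharynx, intestine and neuron markers, 4 were higher in *ivd-1(tm6784)* and 7 were in *bcat-1(hh58)*, none lower, with list medians of 0.23 to 0.41 and -0.12 to 0.46. No marker of these lists was at 0 in all samples of a strain. Their part in the furrow collagen differences was not tested.

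The genes next to the furrow collagens had smaller differences from wild-type. Of 11 neighbours 8 were tested, and in *ivd-1(tm6784)* their median log2 difference was 0.40 and in *bcat-1(hh58)* it was 0.32, with 4 called higher and none lower in each, beside 19.9% and 33.9% of all genes called higher. C31H2.14, which overlaps *dpy-8* on the other strand, stayed between 14.2 and 41.4 FPKM over all samples, with its highest values in *ivd-1(tm6784)* and not in *bcat-1(hh58)*, where *dpy-8* was highest.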

How the data were processed

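Poly-A-selected stranded libraries of 20 whole-worm samples were sequenced as paired ends. By the study's methods the authors aligned reads with Tophat 2.0.10 and summarised them with Cufflinks 2.1.1 on Ensembl 93, and the deposited values are FPKM per gene; the authors' DESeq2 1.4.5 test used counts that were not used here. FPKM divide by the fragments mapped, so a rise of some genes lowers the rest, and read depth is known only relative to other samples. All 20 value columns were matched to samples by title. Here log2(FPKM + 0.5) was fitted in limma 3.58.1 (R 4.3.3; lmFit, contrasts.fit, eBayes with trend; two-sided) on 15957 genes at 0.5 FPKM or more in at least 4 samples, with strain as the only term, all samples sharing one estimate of spread, and Benjamini-Hochberg adjustment over all genes in each of 9 comparisons, called at 0.05. The fit was tested on simulated data.

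The 4 samples of a strain came from separate experiments by the study's account. Members and gene lists were chosen with earlier results of these data known. Named genes are the 6 members, the mutated genes, the 8 genes of closest profile (Pearson r), and of each list the 4 genes with the largest log2 difference in *ivd-1(tm6784)* plus any called against the list's majority; others are marked where named. Positions come from Ensembl 115. Alternatives were pseudocounts of 0.1 and 1, no filter, a mean of at least 1 FPKM, quantile and median-of-ratios scaling, only the strains compared, a replicate block, sample quality weights, an adjusted p of 0.01, and leaving out each sample.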

Additional observations from a re-analysis of the deposited data

Results flagged for a closer look

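*dpy-3* in wild-type replicate 1, at 0.700 FPKM, lay further from the other 3 samples of its strain than Dixon's critical value for 4 samples allows. It was 1 of 30 groups of 4 samples looked at (6 genes in 5 strains), and chance marks about 1 in 20 such groups. The other wild-type values of *dpy-3* were 0.0884, 0.0819 and 0.0400 FPKM, and replicate 1 was also the wild-type sample with the highest summed level of the 6 furrow collagens and of the molting genes (10.5 and 91.2 FPKM).

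The effect of *bcat-1(hh58)* differed between the *ivd-1(tm6784)* background and wild-type for each furrow collagen, by the interaction term of the limma fit. The effect in *ivd-1(tm6784)* minus that in wild-type was -3.80 on the log2 scale for *dpy-2*, -4.74 for *dpy-3*, -4.15 for *dpy-7*, -4.94 for *dpy-8*, -3.33 for *dpy-9* and -2.04 for *dpy-10*, with adjusted p of 6.27e-05 to 0.000402. In wild-type *bcat-1(hh58)* went with higher levels of all 6 genes, and in the *ivd-1(tm6784)* background with differences of -0.61 to 0.09 that were not called.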

How the results depend on the processing

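The counts of furrow collagens called in *bcat-1(hh58)* against wild-type, in the interaction and in the double mutant against *ivd-1(tm6784)* (6, 6 and 0) were the same under all alternatives and without any single sample. *ivd-1(tm6784)* had 5 or 6 called against wild-type under each alternative, and likewise in the double mutant against wild-type; in *ivd-1(tm6784)* against *hecd-1(tm2371)* 4 or 5 were called, each range also holding when 1 sample was left out. *hecd-1(tm2371)* against wild-type gave 0 at an adjusted p of 0.01 and 1 otherwise. In the double mutant against *bcat-1(hh58)* the count of 6 became 1 at an adjusted p of 0.01, 0 with only the strains compared and 4 with a pseudocount of 0.1, and 3 to 6 with 1 sample left out. For *bcat-1(hh58)* relative to *ivd-1(tm6784)* the count of 5 became 1 at an adjusted p of 0.01, 1 with only the strains compared and 3 with a pseudocount of 0.1, and 1 to 6 with 1 sample left out. The cause was not tested.

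Signs turned only among differences that were not called. In the double mutant against *ivd-1(tm6784)* the median became 0.0225 with sample quality weights, *dpy-3* became 0.0901 after quantile normalization and 0.11 with quality weights, and *dpy-7* became 0.0654 with quality weights. With 1 sample left out the median ran from -0.55 to 0.0934, *dpy-2* from -0.56 to 0.0684, *dpy-3* from -0.45 to 0.24, *dpy-7* from -0.54 to 0.12 and *dpy-10* from -0.0395 to 0.28. In *ivd-1(tm6784)* against *hecd-1(tm2371)*, *dpy-10* became -0.24 after quantile normalization and ran from -0.11 to 0.21 with 1 sample left out.

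Quantile normalization moved the median of all genes from 0.17 to -0.14 in *bcat-1(hh58)* against wild-type and from 0.11 to -0.10 in *ivd-1(tm6784)* against wild-type. Genome-wide, 3738 genes were called in the double mutant against *bcat-1(hh58)*, 304 at an adjusted p of 0.01, 7 with only the strains compared, and 448 (without *bcat-1(hh58)* replicate 3) to 7707 (without *bcat-1(hh58)* replicate 2) with 1 sample left out. In *ivd-1(tm6784)* against wild-type 3633 were called, 5831 with quality weights, 1909 at an adjusted p of 0.01 and 2269 without *ivd-1(tm6784)* replicate 2. In *hecd-1(tm2371)* against wild-type 3369 were called, 2192 after quantile normalization, 2198 after median-of-ratios scaling, 1419 at 0.01 and 1964 without *hecd-1(tm2371)* replicate 4. At 0.01, 1708 genes remained of 3110 in *bcat-1(hh58)* against *ivd-1(tm6784)* (1783 with only the strains compared), 4259 of 7112 in the double mutant against *ivd-1(tm6784)*, 3869 of 6113 in the double mutant against wild-type and 4096 of 7569 in the interaction.

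The correlation of the deviations of same-numbered samples ran from -0.46 to 0.38, and was over 0.1 for all 4 numbers in none of the 8 pairwise comparisons. For replicates 1 to 4 it was 0.088, 0.225, 0.084 and 0.301 in *hecd-1(tm2371)* against wild-type. In *ivd-1(tm6784)* against wild-type it was 0.071, 0.254, 0.121 and 0.041. The other comparisons had mixed signs. Shared deviation by replicate number was thus not shown to be absent. Blocking on the replicate number, the counts of furrow collagens called against wild-type stayed 6 in both single mutants and in the double mutant, 1 in *hecd-1(tm2371)*, 0 and 6 in the double mutant against *ivd-1(tm6784)* and *bcat-1(hh58)*, 5 in each of the comparisons of *ivd-1(tm6784)* with *bcat-1(hh58)* and *hecd-1(tm2371)*, and 6 in the interaction.

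The median interaction was -4.58 with a pseudocount of 0.1 and -3.34 after quantile normalization, and the double-mutant median against wild-type was 2.47 with a pseudocount of 0.1. Depth limits the lowest levels: if the smallest *dpy-3* value is 1 fragment, its 4 wild-type values rest on 1 to 17 fragments, so its ratio to wild-type is uncertain.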
